A study of Mus musculus with 16 samples.

Results

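The Zfp gene loci examined here are the mouse genes whose symbol is Zfp followed by a number. They were taken from the RefSeq gene table of GRCm38.p6, as protein-coding genes on chromosomes 1 to 19, and 359 of the 20661 protein-coding genes of those chromosomes met the rule. A member was called clustered when the body of another member lay within 100 kb, which split the set into 208 clustered and 151 single loci. The closest calls were Zfp263, Zfp972, Zfp932 and Zfp605, with gaps of 96400 to 97762 bp inside the limit, and Zfp936 and Zfp715, 104413 bp from the nearest member and thus single.

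The study mapped H3K27ac and H3K4me3, marks of active promoters, in late 2-cell mouse embryos collected 36 h after fertilization. Zygotes had received either H2O (control) or Hdac1 mutant mRNA (mutant), where Hdac1 is a histone deacetylase; strain, mutation and dose are not given in the labels. The assay was ultra-low-input native chromatin immunoprecipitation with sequencing, in which micrococcal nuclease cuts uncrosslinked chromatin of whole embryos. Each combination of mark and injection had 2 immunoprecipitation and 2 input libraries, 16 in all, but is represented by 1 deposited peak list, so no value below has a replicate error and no test between conditions was possible. Read depth is unknown. On chromosomes 1 to 19 the H3K27ac lists held 73320 peaks over 241.8 Mb in control and 114737 peaks over 237.2 Mb in mutant, and the H3K4me3 lists 83220 peaks over 246.7 Mb and 83290 peaks over 272.9 Mb.

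Most Zfp genes encode proteins with arrays of zinc fingers that read DNA sequence. Many also carry a KRAB domain, which recruits KAP1 and histone-modifying silencing complexes to the bound site. This family has expanded in tandem in the mouse, and many members bind transposable elements or imprinted loci and keep them silent from the early embryo onward. Other Zfp symbols belong to widely used transcription regulators, RNA-binding proteins and ubiquitin ligases.

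Start sites could be taken for 300 members from a RefSeq promoter table of the same build (180 clustered, 120 single). The 250 bases before the start are printed for 6 members on which the results below turn. Zfp281 (chr1:136624651-136624900, plus strand) and Zfp42 (chr8:43307010-43307259, minus strand) are pluripotency-associated genes, and Zfp239 (chr6:117861774-117862023, plus strand) lay under the widest control peaks of the family. Zfp513 (chr5:31202304-31202553, minus strand), Zfp563 (chr17:33089117-33089366, plus strand) and Zfp977 (chr7:42592546-42592795, minus strand) had, respectively, a start peak of H3K27ac in control only, of H3K27ac in mutant only, and of H3K4me3 in control only. Each sequence reads 5′ to 3′ along the gene, and capitals mark matches, on either strand, to any of 6 short motifs. GGGCGG is the core of the GC box, which binds Sp-type factors. CCAAT is the box of that name, the usual site of the factor NF-Y. TATAAA is the common form of the TATA box, found a short way upstream of many starts. CCGGAAG is a core site of ETS-family activators. AAGGTCA is the site of certain orphan nuclear receptors and has no match in these 6. GGATTA is a site of certain homeodomain factors.
Zfp281: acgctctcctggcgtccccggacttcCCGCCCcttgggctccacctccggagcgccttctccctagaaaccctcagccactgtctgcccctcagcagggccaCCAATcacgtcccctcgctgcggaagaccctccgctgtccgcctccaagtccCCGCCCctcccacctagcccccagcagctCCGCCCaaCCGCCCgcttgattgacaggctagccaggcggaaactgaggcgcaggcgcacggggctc
Zfp42: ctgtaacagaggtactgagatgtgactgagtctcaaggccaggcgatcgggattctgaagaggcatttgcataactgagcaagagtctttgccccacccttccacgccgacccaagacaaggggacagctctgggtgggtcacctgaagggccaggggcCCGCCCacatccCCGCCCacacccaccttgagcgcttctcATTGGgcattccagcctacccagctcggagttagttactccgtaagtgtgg
Zfp239: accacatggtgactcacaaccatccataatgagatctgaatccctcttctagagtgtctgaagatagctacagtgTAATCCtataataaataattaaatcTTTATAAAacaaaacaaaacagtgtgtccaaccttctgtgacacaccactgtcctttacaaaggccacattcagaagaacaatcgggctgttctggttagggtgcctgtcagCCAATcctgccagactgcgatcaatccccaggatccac
Zfp513: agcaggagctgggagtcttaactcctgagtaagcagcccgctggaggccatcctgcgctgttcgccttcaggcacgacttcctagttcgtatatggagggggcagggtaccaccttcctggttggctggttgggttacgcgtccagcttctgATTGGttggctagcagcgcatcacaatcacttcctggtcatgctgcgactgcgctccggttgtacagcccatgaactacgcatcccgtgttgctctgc
Zfp563: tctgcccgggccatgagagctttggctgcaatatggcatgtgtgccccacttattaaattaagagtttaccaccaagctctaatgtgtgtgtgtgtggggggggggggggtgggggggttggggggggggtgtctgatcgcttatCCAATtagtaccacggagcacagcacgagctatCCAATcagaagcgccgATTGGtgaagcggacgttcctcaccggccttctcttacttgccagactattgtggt
Zfp977: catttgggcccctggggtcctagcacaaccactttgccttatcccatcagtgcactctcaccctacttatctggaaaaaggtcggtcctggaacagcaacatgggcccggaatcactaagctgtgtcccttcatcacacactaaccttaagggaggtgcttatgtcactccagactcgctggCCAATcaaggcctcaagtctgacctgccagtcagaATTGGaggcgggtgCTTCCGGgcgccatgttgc
The 250 bases held 19 CG dinucleotides at Zfp281, 9 at Zfp42, 2 at Zfp239, 13 at Zfp513, 9 at Zfp563 and 6 at Zfp977. Zfp281 thus had GC-box matches in a CG-rich sequence. In the CG-poor sequence of Zfp239 the TATA-box matches overlap in the same stretch, on opposite strands, and lie away from the start.

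Over the 300 bases around the start (250 before, 50 after), the member promoters had a median of 13 CG dinucleotides against 14 over all 16456 protein-coding promoters in the table. Clustered members had a median of 11 and single members 17. The CCAAT box was present in 50.3% of member promoters and 39.1% of all promoters, and the ETS-type core in 23.0% against 12.3%. A TATA box was found in 18 member promoters (6%, against 13.5% of all) and a GC box in 44.0% against 47.3%. The nuclear-receptor site was in 6 member promoters (2%) and 659 of all, and the homeodomain site in 6.67% against 6.50%. These are matches to letters, not measured binding sites.

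H3K4me3 lay over nearly every Zfp locus in control embryos. A locus was counted as marked when a peak overlapped, by at least 1 bp, the windows of 2 kb on each side of either gene end. By that rule 330 of 359 members (91.9%, 95% Wilson interval 88.6 to 94.3) were marked in control and 318 (88.6%, 84.9 to 91.5) in mutant, where 76.4% and 75.1% of all protein-coding genes were. Between the lists 23 members lost the H3K4me3 peak, 6.97% of those marked in control (background 8.14%), and 11 gained one, 37.9% of the 29 unmarked (22.7 to 56.0, background 20.8%). The 4875 unmarked background genes include 1018 olfactory receptor genes, of which 6.97% gained a peak. The count of gains was 7 with windows of 1 kb, 6 with windows of 5 kb, 7 without peaks under 500 bp and 24 in the wider 50% of each list. Intervals cover counting error only, and members are not independent: of the 330 marked in control, 50 lay at a peak that also marked another member, and all 50 were clustered.

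The peaks sat at the start of the genes. The listed start was within 2 kb of a gene end in all but 29 of the 300 members, and at those 29 a count at the gene ends does not cover it. Within 2 kb of the start, 278 of 300 members (92.7%, 89.1 to 95.1) had an H3K4me3 peak in control and 256 (85.3%, 80.9 to 88.9) in mutant, against 73% and 69.9% of all genes. At the opposite gene end the shares were 45.7% and 39.7%, close to the 41.4% and 40.7% of all genes. Of the members with a start peak in control, 30 had none in mutant (10.8%, background 10.5%), and 8 gained one (36.4% of unmarked, background 16.8%). A start peak was thus more common in the family than among all genes in both lists, and was lost at about the background rate.

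H3K27ac was found at fewer members and moved more between the lists. It marked the gene ends of 239 members (66.6%, 61.5 to 71.3) in control and 254 (70.8%, 65.8 to 75.2) in mutant, against 56.3% and 59.3% of all genes. The peak was lost at 50 members, 20.9% of those marked (16.2 to 26.5), where the background was 22.6%, and the count was 31 with windows of 5 kb. It was gained at 65, which is 54.2% of the 120 unmarked members (45.3 to 62.8), where the background was 35.9%. The mutant H3K27ac list is longer: with both lists cut to equal size by width, 63 members lost and 52 gained the peak, so that the balance turned, while the gain still amounted to 43.3% of unmarked members (34.8 to 52.3) against 27.1% of all unmarked genes.

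At the start alone, H3K27ac was listed at 167 members (55.7%) in control and at 169 (56.3%) in mutant, against 47% and 45.7% of all genes. Under this near-equal total, 58 members lost the start peak (34.7%, background 34.6%) and 60 gained one (45.1% of unmarked, background 28.2%). Within the 300 bases around the start, the share with H3K27ac was lower in the mutant list, at 116 members (38.7%) against 150 in control (50%), as it was over all genes (30.8% against 37.9%).

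**Figure D1:**
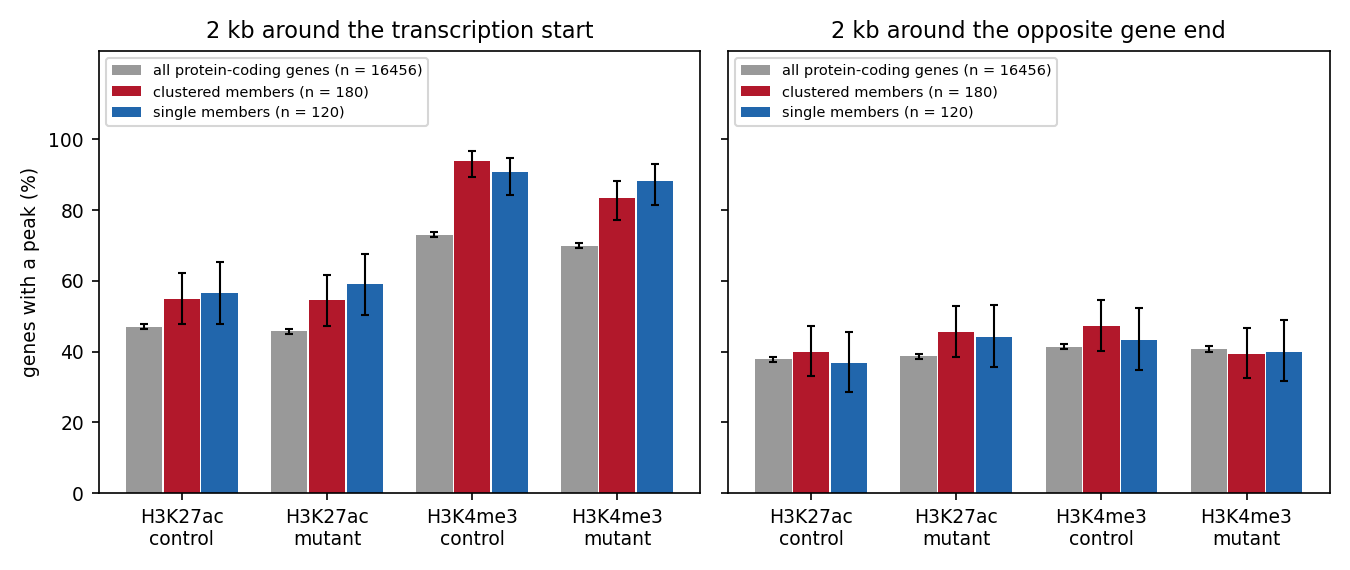
Share of genes (%) with a peak within 2 kb of the transcription start (left) or of the opposite gene end (right), in each list, for all protein-coding genes with a listed start (grey, 16456), clustered members (red, 180) and single members (blue, 120); error bars are 95% Wilson intervals, counting error only. H3K4me3 at the start stands above all genes for both kinds of member (92.7% of members against 73% in control), and the opposite end does not.

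Read as combinations, 233 members carried both marks at their ends in control, 97 H3K4me3 alone, 6 H3K27ac alone and 23 neither; in mutant the counts were 238, 80, 16 and 25. The shares of members in control were 64.9%, 27%, 1.67% and 6.41%, against 52.4%, 24.0%, 3.90% and 19.7% of all protein-coding genes. Of the 97 with H3K4me3 alone, 57 had both marks in the mutant list (58.8%, 48.8 to 68.0), against a background of 44.8%; with the H3K27ac lists at equal size this was 45 (46.4%, 36.8 to 56.3) against 36.8%. Members with both marks kept them in 177 of 233 cases (76.0%, against 76.8% of all genes with both), and 42 passed to H3K4me3 alone (18.0%, background 18.1%). Chromosome 13 supplied 13 of the 57, from 14 members with H3K4me3 alone. Without that chromosome the move was made by 44 of 83 members (53.0%, 42.4 to 63.4), against 44.6% of all genes outside it, so the interval held the background. The gain of H3K27ac at any unmarked member was then 51 of 103 (49.5%, 40.1 to 59.0) against 35.6%, and 42 of 103 (40.8%, 31.8 to 50.4) against 26.7% with lists of equal size. Thus the rate of H3K27ac loss was near that of other genes. The gain over all unmarked members was above that of all unmarked genes with and without chromosome 13, but the pools differ. Of the 120 unmarked members 97 held H3K4me3, against 4961 of 9031 unmarked genes. Over all genes, 44.8% of those with H3K4me3 alone passed to both marks. Of those with neither mark, 6.78% passed to both and 11.7% to H3K27ac alone. Unmarked genes also include 998 olfactory receptor genes, of which 9.22% gained the peak. The part of these differences in the excess was not tested. An excess among members holding H3K4me3 alone had its lower bound at the background with lists of equal size. It was not resolved without chromosome 13.

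Members differed most from other genes where the promoter was poor in CG dinucleotides. Among promoters with at most 7 CG dinucleotides, 53 of 69 members (76.8%, 65.6 to 85.2) had an H3K4me3 start peak in control, against 34.1% of all such promoters, or 41.5% once olfactory and vomeronasal receptor genes were set aside. Leaving out members with a near copy of their promoter elsewhere, the share was 49 of 56 (87.5%). Where the promoter had 20 or more CG dinucleotides, all 82 members had the peak (95.5 to 100), as did 99.3% of all genes. Zfp239 is a case of the first kind. Its promoter printed above has 2 CG dinucleotides in 250 bases, yet it lay wholly within an H3K4me3 peak of 47515 bp in control and 24203 bp in mutant.

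H3K27ac start peaks also became more frequent with CG content, from 42.0% of members in the lowest CG class to 68.3% in the highest in control (all genes 25.2% and 63.3%). By motif, members with the ETS-type core had an H3K27ac start peak in 47.8% of cases in control (36.5 to 59.4) and 59.4% in mutant (47.6 to 70.2), and members without it in 58.0% and 55.4%. The intervals of these shares overlap, so no difference by this motif is resolved.

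Some members have near copies of their promoter. The promoters of 23 members share at least 50% of their 31-base words with a promoter elsewhere, such as Zfp966 and Zfp967 (100%), Zfp943 and Zfp758 (86.7%), and Zfp944 and Zfp942 (79.3%). In control the H3K4me3 start peak was listed at 12 of these 23 (52.2%, 33.0 to 70.8) and at 266 of the other 277 (96.0%, 93.0 to 97.8). In mutant it was listed at 8 and 248. How reads with several matching places were treated is not given in the sources used here, and its part in this difference was not tested.

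Only 14 members had no peak at either end in any of the 4 lists (3.90%, 2.34 to 6.44), against 13.9% of all protein-coding genes. They are Zfp968, Zfp965, Zfp966, Zfp967 and Zfp973 on chromosome 2, Zfp979 and Zfp534 on chromosome 4, Zfp111, Zfp93 and Zfp976 on chromosome 7, Zfp433 and Zfp781 on chromosome 10, Zfp735 on chromosome 11 and Zfp595 on chromosome 13. Of these, 9 belong to the members with a near copy, and 4 had a peak elsewhere in the gene. One of the latter, Zfp595, had H3K4me3 at its listed start, 10394 bp inside the gene, in both lists; the others of the 14 had no peak of either mark within 2 kb of their listed start. The family as a whole contrasts with the tandem olfactory receptor genes, of which 7.79% had H3K4me3 and 9.60% had H3K27ac at a gene end in control.

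Peak width changed more than peak presence. Among the 189 members with H3K27ac at their ends in both lists, the widest peak was over 1.5-fold narrower in mutant at 100 (52.9%, background 52.6%) and over 1.5-fold wider at 41 (21.7%, background 21.7%). Its median fell from 7468 to 4372 bp, and members with a peak over 10 kb fell from 86 to 33 of 359 (24.0% to 9.19%, against 23.1% to 10.4% of all genes). H3K4me3 went the other way. Of 307 members with that mark in both lists, 119 had a wider peak in mutant (38.8%, background 38.1%) and 50 a narrower one (16.3%, background 18.3%), with medians of 4657 and 6188 bp and with 52 and 76 members under a peak over 10 kb (14.5% and 21.2%, against 19% and 25.2% of all genes). All 4 shares were close to those of protein-coding genes at large. The widest peaks of the lists need not be the same stretch: they overlapped each other at 114 of the 189 members (60.3%) for H3K27ac and at 250 of the 307 (81.4%) for H3K4me3. Among these overlapping pairs, H3K27ac was narrower in mutant at 56.1% (all genes 53.9%) and H3K4me3 wider at 36.8% (all genes 38%). The smallest listed width ran from 149 to 182 bp over the 4 lists, and its part in these shifts was not tested.

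**Figure D2:**
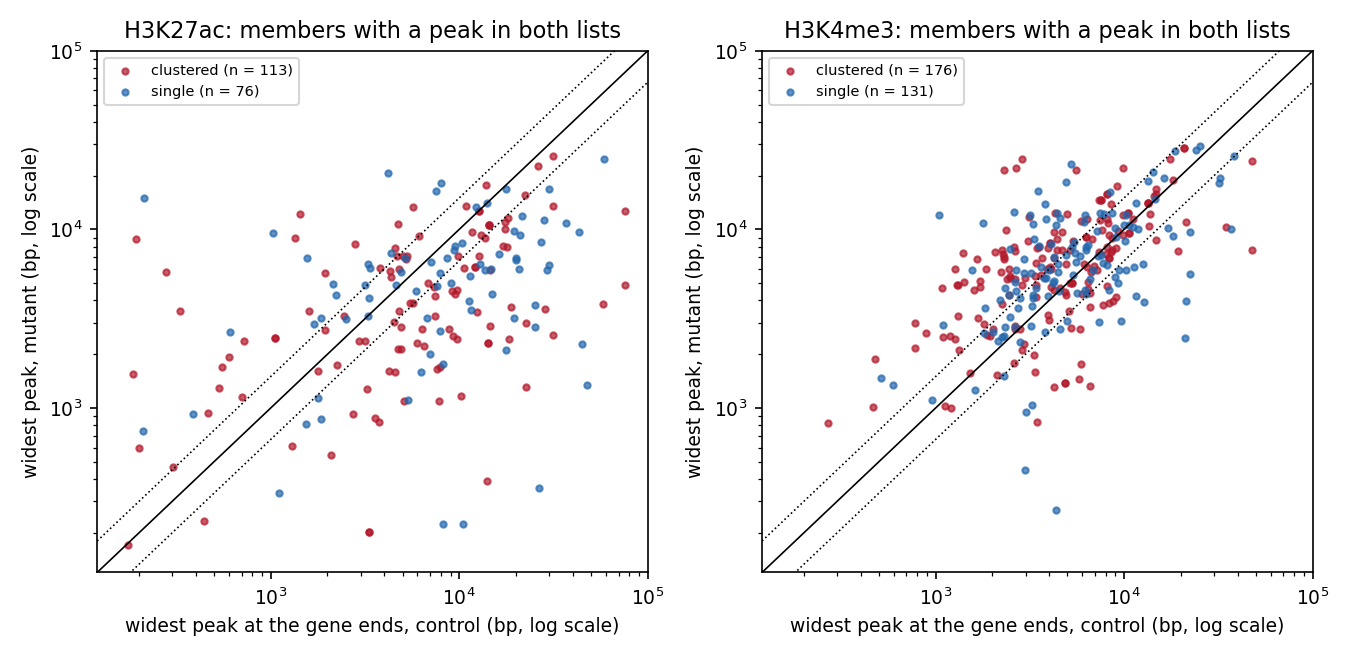
Width of the widest peak at the gene ends (bp, log scales) in the control list (x axis) and the mutant list (y axis) for members with a peak in both, clustered in red and single in blue; the solid line marks equal width and dotted lines 1.5-fold, and the peaks compared need not overlap. For H3K27ac 100 of 189 members lie below the lower dotted line, and for H3K4me3 119 of 307 lie above the upper.

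No difference between clustered and single loci was resolved in the share marked at the gene ends. In control, H3K27ac was present at 68.3% of clustered and 64.2% of single members, a difference of 4.03 percentage points (−5.74 to 13.9), and H3K4me3 at 92.8% and 90.7%, a difference of 2.06 (−3.63 to 8.40). In mutant the H3K27ac shares were 72.1% and 68.9%, a difference of 3.24 (−6.16 to 12.9), and those of H3K4me3 87.0% and 90.7%, a difference of −3.71 (−10.1 to 3.19). With clusters defined by 200 kb that last difference was −7.39 (−13.4 to −0.55).

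A contrast between clustered and single loci lay in the change of H3K4me3 between the lists. At the start, the peak was absent from the mutant list at 23 of 169 clustered members marked in control (13.6%) and 7 of 109 single members (6.42%), a difference of 7.19 points (−0.43 to 14.0). Where the mark persisted, the widest end peak was over 1.5-fold wider in mutant at 79 of 176 clustered members (44.9%, 37.7 to 52.3) and 40 of 131 single members (30.5%, 23.3 to 38.9), a difference of 14.4 points (3.35 to 24.7). This contrast was looked at after the values were seen, and the difference ranged from 7.23 to 20.2 over 9 alternatives, and was 16.4 (4.43 to 27.6) among members whose widest peaks overlap. Its interval reached below 0 with windows of 1 kb (−0.47) or 5 kb (−3.43), in the wider 50% of each list (−0.08) and with clusters defined by 200 kb (−0.03). These intervals treat members as independent, although 50 clustered members shared an H3K4me3 peak with another member in each list. Single members more often had the end of another protein-coding gene in their windows (24.5% against 17.3%), and without such members the difference was 20.2 points (7.50 to 31.7).

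**Figure D3:**
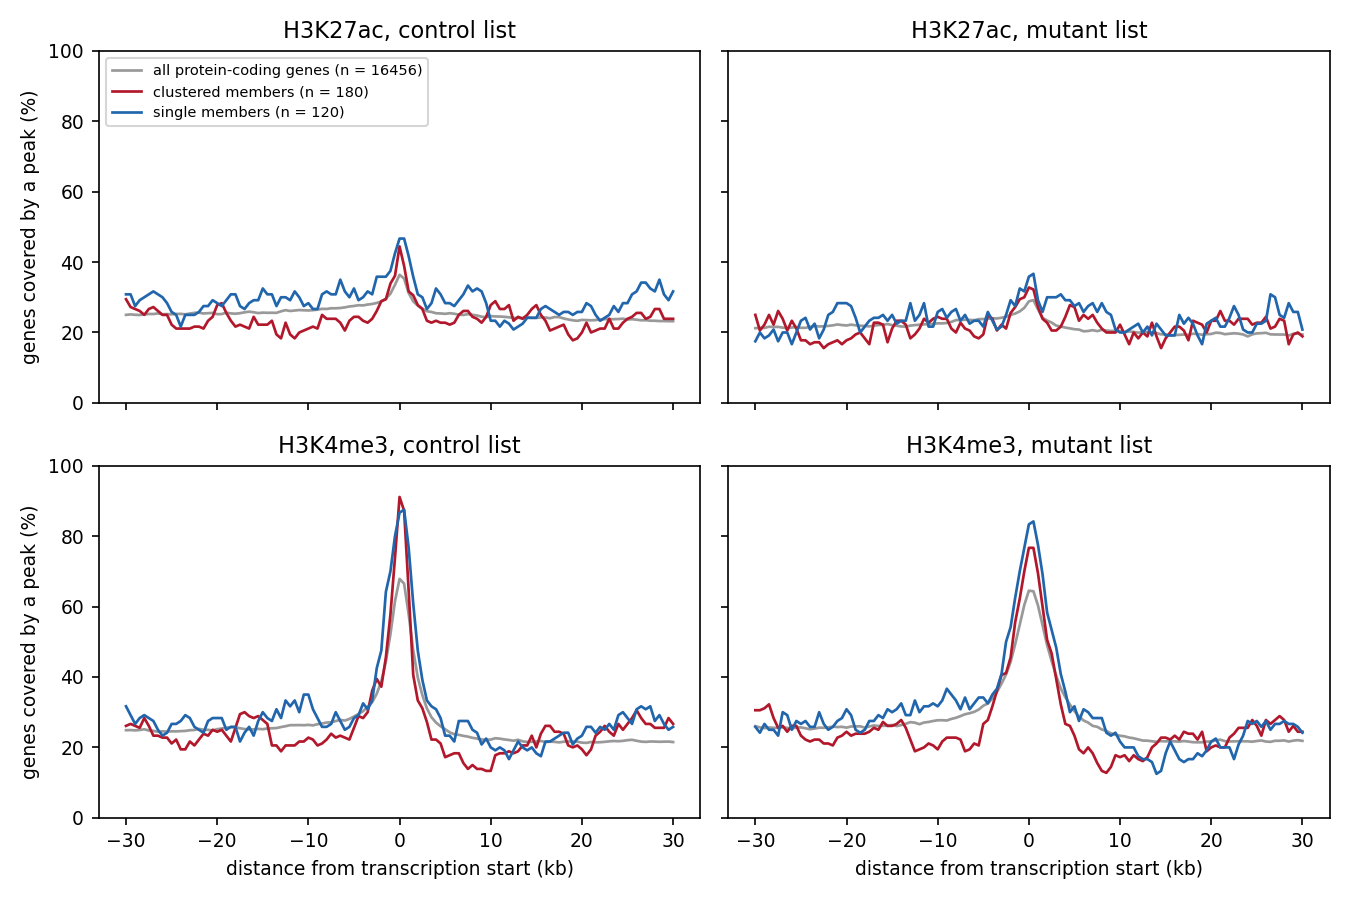
Share of genes (%) covered by a peak at each distance from the transcription start (kb, in the direction of transcription), by mark (rows) and list (columns), for all protein-coding genes with a listed start (grey, 16456), clustered members (red, 180) and single members (blue, 120). The H3K4me3 summit of the clustered members is narrow in control and lower and wider in mutant.

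By distance from the start, H3K4me3 covered the start base itself in 91.1% of clustered members and 86.7% of single members in control, and 67.9% of all protein-coding genes. In mutant the shares were 76.7% of clustered members, 83.3% of single members and 64.5% of all protein-coding genes. At 2 kb into the gene the order of the lists was the reverse. There H3K4me3 covered 33.3% of clustered members in control and 50.6% in mutant, 47.5% and 58.3% of single members, and 39.8% and 49.1% of all protein-coding genes. For H3K27ac the start base was covered in 44.4% of clustered members in control and 32.8% in mutant, in 46.7% and 35.8% of single members, and in 36.4% and 28.8% of all protein-coding genes. Coverage at the start was thus lower in the mutant list for both marks, and H3K4me3 extended further to the side.

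Inside the gene bodies, beyond the end windows, H3K27ac covered 18.0% of the summed length in control and 14.9% in mutant (all genes 13.1% and 11.9%). The median body moved the opposite way, from 7.37% to 11.2% covered, and bodies with no H3K27ac fell from 117 to 87 of 348 (33.6% to 25%). All genes moved the same way, with medians of 5.88% and 7.63% and with 31% and 28.2% of bodies uncovered. For H3K4me3 the summed coverage was 14.1% in both lists (all genes 10.5% and 11.4%), while the median body rose from 7.92% to 11.5% and uncovered bodies fell from 99 to 77 (28.4% to 22.1%). Over all genes the median rose from 8.94% to 12.1% and uncovered bodies fell from 24.5% to 21.5%. The sum is weighted to the longest genes and the median is not, so that no single direction holds for bodies.

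The 50 clusters held the 208 clustered members, and 15 of them had 5 or more members (120 members in all). Across these 15, the share of the cluster span under H3K27ac had a median of 28.9% in control and 18.9% in mutant, while 250 kb of flank on each side had 19.4% and 19.8%. Set against its own flank, the span held more H3K27ac in 8 of the 15 clusters in control and in 9 in mutant, so the medians do not show the clusters falling below their flanks. H3K27ac coverage was higher in mutant in 5 of the 15. H3K4me3 had a median of 29.0% and 25.8% in the spans and 22.1% and 17.7% in the flanks, with the span above its flank in 10 and 9 of the 15, and was higher in mutant in 9 of the 15.

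**Figure D4:**
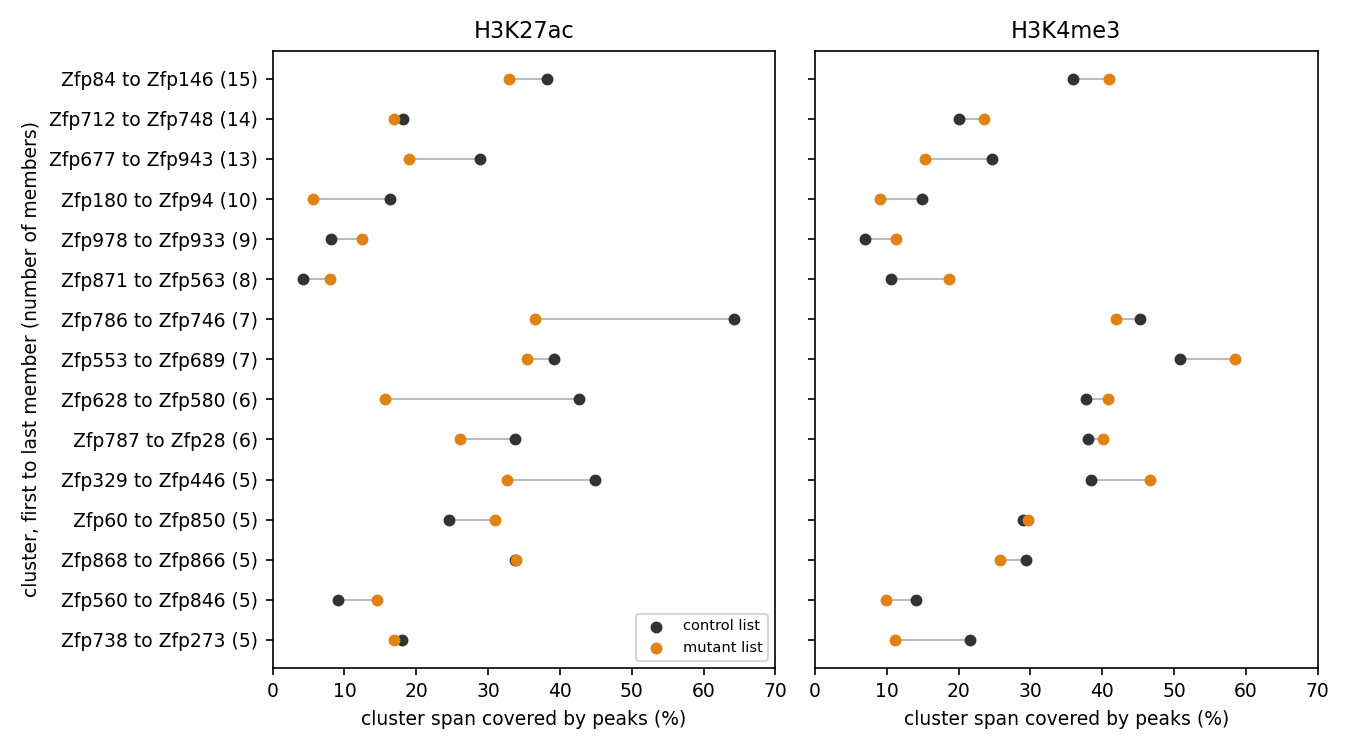
Share of each cluster's span (%) covered by H3K27ac (left) and H3K4me3 (right) peaks in the control (black) and mutant (orange) lists, for the 15 clusters with 5 or more members, named by first and last member with the number of members. The H3K27ac share ran from 4.21% to 64.2% in control and from 5.64% to 36.5% in mutant.

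The cluster with most members ran from Zfp84 to Zfp146 (chr7:29768552-30169775) and held 15 members and no other protein-coding gene. Every member had H3K4me3 at its ends in both lists, and all but Zfp260 had H3K27ac in both. At Zfp260 H3K27ac covered 35.2% of the end windows in control and none in mutant, with H3K4me3 at 50% and 47.9%. Window coverage by H3K4me3 was higher in mutant at 11 of the 15 members, with medians of 50% and 69.5%, and by H3K27ac at 10, with medians of 39.0% and 45.3%. Over the whole span, by contrast, H3K27ac covered 38.1% in control and 32.9% in mutant, in 38 and 56 peaks, and H3K4me3 36.0% and 40.9%. Zfp568, which silences a placental promoter of Igf2, was among the 5 members with less H3K27ac in their windows, at 51.2% in control and 32.7% in mutant. Over the whole gene H3K27ac covered 73% and 22%, and the widest peak at its ends measured 31369 and 2552 bp.

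On chromosome 17, 2 clusters of different kinds lay apart. From Zfp677 to Zfp943 (chr17:21383707-21994366, 13 members) the span under H3K27ac went from 28.9% to 18.9% and under H3K4me3 from 24.6% to 15.3%, and H3K4me3 was listed at 13 and 11 members. From Zfp871 to Zfp563 (chr17:32765496-33110707, 8 members) H3K27ac was listed at 1 member in control and 5 in mutant, and H3K4me3 at 7 and 8. At Zfp563 H3K27ac covered none of the end windows in control and 78.7% in mutant, while at Zfp472, Zfp799, Zfp763 and Zfp952 it went from none to 20.2%, 5.67%, 3.46% and 3.06%. Zfp811, the 1 member marked in control, had 8.26% of its windows under H3K27ac there and none in mutant. The widest new peaks measured 5812 bp at Zfp563, 4573 bp at Zfp472 and between 245 and 1065 bp at the other 3. In percentage points, the largest fall of H3K27ac among the 15 clusters was from Zfp786 to Zfp746 (chr6:47815536-48086986), at 64.2% of the span in control and 36.5% in mutant, with H3K4me3 at 45.2% and 41.9%. Relative to control, the falls from Zfp180 to Zfp94 (16.4% to 5.64%) and from Zfp628 to Zfp580 (42.7% to 15.7%) were larger.

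More members gained H3K27ac on chromosome 13 than on any other chromosome, and it was singled out after its values were seen. Of 32 members there, 15 had H3K27ac at their ends in control and 28 in mutant; 14 of the 17 unmarked gained it (82.4%, 59.0 to 93.8) and 1 lost it. Over all protein-coding genes of chromosome 13 the gain was 180 of 414 (43.5%). By share, chromosomes 3, 16 and 18 were higher, with gains at all of their 2, 2 and 3 unmarked members. H3K4me3 was listed at the ends of 28 of the 32 in each list, of which 26 were the same members. At the start, H3K4me3 was listed at all 27 chromosome 13 members with a listed start in control and at 20 in mutant, a loss of 25.9% (13.2 to 44.7), against 14.9% over all genes of that chromosome. Under 5 alternatives the count of gains was between 10 and 14, lowest with lists of equal size and with the wider 50% of each. Chromosome 17 came next by count: of its 41 members 24 had H3K27ac in control and 31 in mutant, with 12 gains and 5 losses. The share over all protein-coding genes of that chromosome was not computed, so this count has no background beside it.

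Within chromosome 13, the cluster from Zfp712 to Zfp748 (chr13:67038594-67553152) held 14 members and 4 other protein-coding genes. H3K27ac was listed at 6 members in control and 13 in mutant, and the gains fell at Zfp712, Zfp759, Zfp455, Zfp457, Zfp953, Zfp456 and Zfp87. The cluster as a whole did not hold more H3K27ac: 18.2% of its span was covered in control and 16.8% in mutant, by 23 and 54 peaks. At Zfp748 the windows were covered to 78.2% in control and 2.4% in mutant, and at Zfp458 to 47.4% and 14.6%. H3K27ac was thus spread over more, shorter peaks. The same held over chromosomes 1 to 19, with 73320 peaks over 241.8 Mb in control and 114737 over 237.2 Mb in mutant. H3K4me3 window coverage went from 28.0% to 59.6% at Zfp456, from 26.9% to 70.6% at Zfp459 and from 42.9% to none at Zfp748.

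**Figure D5:**
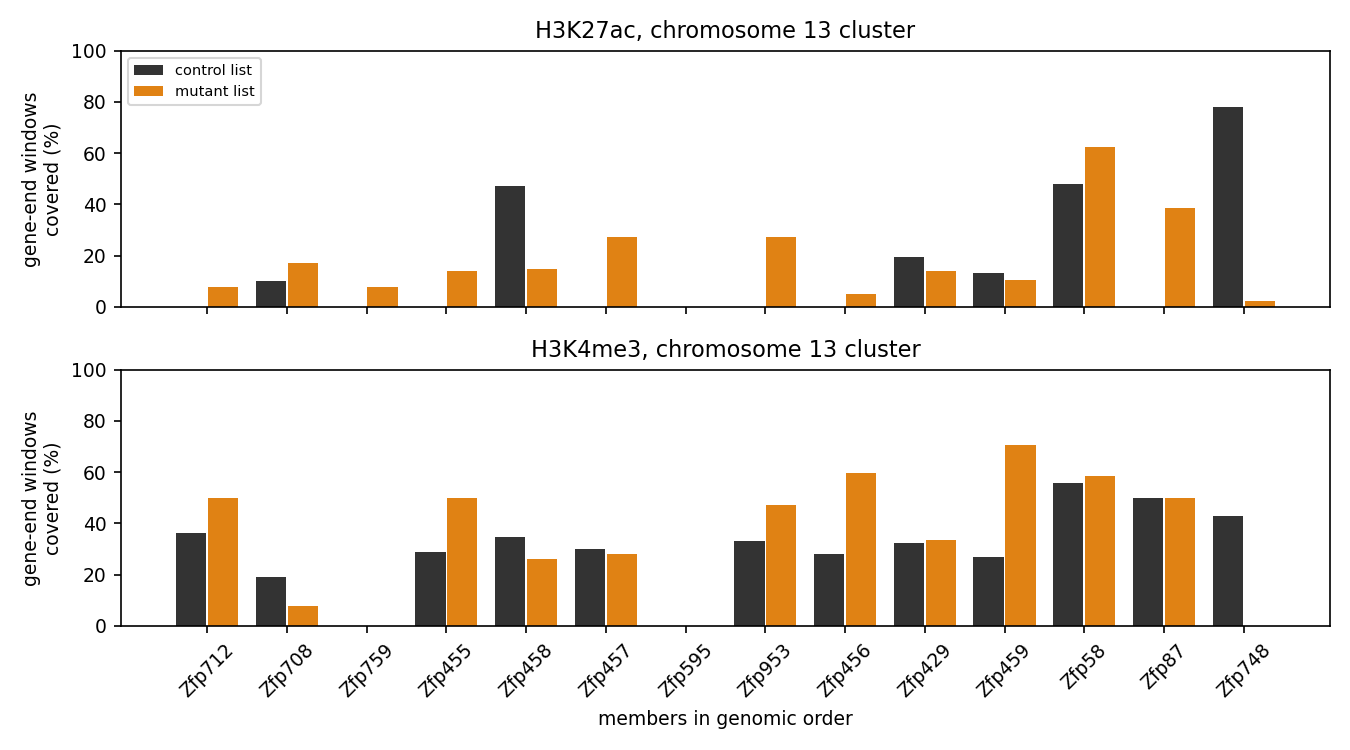
Share of the gene-end windows (%) covered by H3K27ac (top) and H3K4me3 (bottom) peaks in the control (black) and mutant (orange) lists, for the 14 members from Zfp712 to Zfp748 in genomic order. H3K27ac is at 0 in control and above it in mutant at 7 members, and Zfp748 shows the steepest fall, from 78.2% to 2.4%.

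A set of 18 members with known roles was followed one by one. H3K4me3 was at the ends of 17 of them in both lists and of Zfp445 in control only. H3K27ac was in both lists at 12, in control only at 2, in mutant only at 3, and at Zfp42 in neither. Where H3K27ac was in both, its widest peak was over 1.5-fold narrower in mutant at 9, within 1.5-fold at 2 and wider at 1; for H3K4me3, 2 were narrower, 11 within 1.5-fold and 4 wider. The backgrounds given above were 52.6% narrower and 21.7% wider for H3K27ac, and 18.3% and 38.1% for H3K4me3. These 18 are too few, and chosen by hand, to set them apart from that. At some of them the widest peaks of the lists lay apart, so their widths describe different peaks: Zfp57 and Zfp207 for both marks, Zfp281 and Zfp91 for H3K27ac, and Zfp384 for H3K4me3. The roles below are background.

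Of the pluripotency-associated genes, Zfp42 (Rex1, chr8:43295067-43307009) had no H3K27ac peak in its end windows or its body in either list. Its H3K4me3 peak spanned 6465 bp in control against 8174 bp in mutant, and in both it covered the promoter printed above. Zfp281 (chr1:136624901-136630391), a regulator of the exit from naive pluripotency, had H3K27ac in both lists. There a peak of 44538 bp that began just past the gene in control had no counterpart of like width in mutant, where the widest measured 2273 bp, while H3K4me3 measured 7559 and 7167 bp.

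Among genes that protect imprints or silence retroviral sequence, changes went in several directions. Zfp57 (chr17:37001163-37010729), needed to keep methylation at imprinted regions, had H3K27ac peaks of 12859 bp in control and 6379 bp in mutant and H3K4me3 peaks of 8088 and 6355 bp. At its start the 2 kb windows were covered fully by H3K27ac in control and not at all in mutant, and by H3K4me3 to 79.7% and fully. Zfp445 (chr9:122848910-122886851), which acts with Zfp57 at imprints, has its listed start inside the annotated gene, 17096 bp from the nearer end. That start had both marks in both lists, and the gene was covered by H3K27ac to 41.6% in control and 40.9% in mutant and by H3K4me3 to 32.1% and 39.7%. At its outer ends, away from that start, it had an H3K27ac peak of 1304 bp in mutant only and an H3K4me3 peak of 1672 bp in control only. Zfp809 (chr9:22225667-22254117), which recruits silencing to retroviral primer-binding sites, had an H3K27ac peak of 11292 bp in control and none at its ends in mutant. That peak covered 11.9% of the end windows in control, and H3K27ac over the gene went from 57.3% to 27.1%. H3K4me3 over the gene went from 52.9% to 21.9%, and over the windows at its start from 77.3% to 52.1%. Its widest H3K4me3 peaks, of 5162 and 7688 bp, lay at the opposite end and overlapped another member.

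Members that act outside transcription had both marks at a gene end in both lists. Zfp36 (tristetraprolin), which triggers decay of AU-rich mRNAs, had H3K27ac of 7918 and 5687 bp and H3K4me3 of 8455 and 16130 bp in control and mutant. Zfp598, a ubiquitin ligase that acts at collided ribosomes, lay at an H3K27ac peak of 58424 bp in control, which also overlapped 9 other protein-coding genes, and one of 24638 bp in mutant. Its H3K4me3 peaks of 25281 and 29355 bp include the widest of the family in the mutant list. Zfp91, another ubiquitin ligase, had an H3K27ac peak of 6304 bp at its start in control and none there in mutant, where the peak of 1592 bp lay at the opposite end. H3K4me3 at Zfp91 measured 4426 and 12277 bp. Zfp207, a spindle-associated protein, had H3K27ac of 36649 and 10865 bp and H3K4me3 of 17115 and 10125 bp.

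Broadly expressed transcription regulators made up most of the others. Zfp143, a promoter-binding factor also found at chromatin loops, had H3K27ac of 28264 bp in control and 11278 bp in mutant and H3K4me3 of 31985 and 18078 bp. Zfp217 had H3K27ac of 25258 and 3783 bp and H3K4me3 of 23948 and 27980 bp, and Zfp384 had H3K27ac of 19500 and 3178 bp and H3K4me3 of 6280 and 7650 bp. At Zfp148 the widest H3K27ac peak at the ends measured 3271 and 3281 bp and that of H3K4me3 3393 and 4691 bp. Those H3K4me3 peaks lay outside the gene, at the end opposite its start. Over the whole of this gene coverage was lower in mutant, at 30.5% and 16.3% for H3K27ac and 15.3% and 7.42% for H3K4me3. Zfp335 alone of the 18 had an H3K27ac peak over 1.5-fold wider in mutant, at 18228 against 8039 bp, although the share of its windows covered was 73.3% in control and 17.4% in mutant.

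The remaining genes have roles in later development. At Zfp423, a regulator of neural and fat cell differentiation, and Zfp462, H3K27ac was absent from the ends in control. In mutant it had peaks there of 2053 and 1351 bp, and that of Zfp423 lay at the end opposite its listed start. H3K27ac covered 9.75% of the gene in control and 6.14% in mutant at Zfp423, and 4.63% and 5.78% at Zfp462. Their widest H3K4me3 peaks measured 7848 and 12262 bp at Zfp423, again at the opposite end, and 4442 and 5783 bp at Zfp462. Zfp110, which encodes a partner of the neurotrophin receptor p75, had 2 H3K27ac peaks at its ends in control, the wider of 2770 bp, which together covered 35.1% of its windows, and none in mutant, and H3K4me3 of 3470 and 7892 bp.

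Complete losses of H3K27ac, with no mutant peak in the windows or the gene, occurred at 21 members, 8.79% of those marked in control (5.82 to 13.1, background 11.8%). The widest lost peaks were at Zfp513 (71138 bp), Zfp446 (52398 bp), Zfp830 (15387 bp), Zfp646 (14065 bp) and Zfp120 (12947 bp). At Zfp513 (chr5:31198981-31202663) the control peak lay over the whole gene and 5 other protein-coding genes, and the nearest mutant peak was 16588 bp away. The control peak at Zfp446 also overlapped 6 other protein-coding genes. That at Zfp830 began past the gene and overlapped 1 other, and that at Zfp646 overlapped another member. H3K4me3 at these 5 members went in different directions. It covered 95.5% of the windows at the start of Zfp513 in control and all of them in mutant, and its widest peak at Zfp830 measured 4570 and 11509 bp. At Zfp120 that peak measured 6598 and 3652 bp, at Zfp446 the share of the windows under H3K4me3 went from 43.9% to 28.0%, and at Zfp646 it was 42.8% and 45.2%. All 5 members had an H3K4me3 peak at a gene end in both lists.

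The reverse, H3K27ac in mutant and none in control in the windows or the gene, held for 33 members, 27.5% of those unmarked in control (20.3 to 36.1, background 18.9%). It held for 23 of 66 clustered members (34.8%, 24.5 to 46.9) and 10 of 54 single members (18.5%, 10.4 to 30.8), and these intervals overlap. The widest such peaks were at Zfp703 (9602 bp), Zfp629 (8502 bp), Zfp64 (8019 bp), Zfp563 (5812 bp) and Zfp759 (5600 bp), all narrower than the 5 widest lost. That at Zfp64 lay outside the gene, at the end opposite its start. At Zfp563 (chr17:33089367-33110707) the mutant peak covered the promoter printed above, and H3K4me3 covered 32.7% of the windows at the start in control and all of them in mutant. H3K4me3 was present at Zfp703, Zfp629, Zfp64 and Zfp563 in both lists. Zfp759 had none at its ends in either, but its listed start, 6569 bp from the nearer end, lay under H3K4me3 in control and not in mutant. The 5 gained peaks thus lay at genes with H3K4me3 in control, which was common: 97 of the 120 members without H3K27ac at their ends in control had H3K4me3 there.

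Complete losses of H3K4me3 numbered 14 (4.24% of marked members, background 5.07%), and the 5 widest were all at clustered members: Zfp977 (7223 bp), Zfp944 (5734 bp), Zfp738 (5038 bp), Zfp619 (4413 bp) and Zfp748 (3554 bp). At Zfp977 (chr7:42579397-42592545) the control peak covered the promoter printed above, and the nearest mutant peak was 16983 bp from the gene. H3K27ac remained there, at 6541 bp in control and 2223 bp in mutant. At Zfp748, Zfp944 and Zfp619 the H3K27ac end peak was also narrower or absent in mutant. Its widest end peak went from 13993 to 391 bp at Zfp748, from 3324 to 203 bp at Zfp944 and from 2745 bp to none at Zfp619. Zfp738 had no H3K27ac at its ends in either list, but H3K27ac covered none of its gene in control and 6.83% in mutant. Zfp944 has a near copy of its promoter at Zfp942, so its values are uncertain. Complete gains of H3K4me3 were seen only at Zfp616 (2871 bp) and Zfp600 (729 bp), 6.90% of unmarked members (background 12.5%), and the promoter of Zfp600 shares 94.4% of its words with that of Rex2.

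The widest peaks of the family in control, for both marks, were at Zfp239 (chr6:117862024-117872766). H3K27ac there spanned 75751 bp in control, over 3 other protein-coding genes of which 1 is a member, and 12627 bp in mutant. In the mutant list the widest H3K27ac peak was at Zfp7, with 25824 bp against 31284 bp in control.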

How the data were processed

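The authors deposited 1 peak list for each of the 4 immunoprecipitation groups, with chromosome, start and end of each peak as the only columns; both libraries of a group name the same list, and whether reads were pooled is not given in the sources used here. The submitters' processing notes name Trimmomatic, Bowtie2, SAMtools, Picard, MACS2 and deepTools and the build mm10 (GRCm38), with no thresholds; how each was used is not given. Lists have no scores, so peaks were compared only by position and width. Input libraries were not analysed here.

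Groups were taken from the sample titles. BED positions were converted to 1-based coordinates. Members, windows and shares were computed with Python 3.11.15, numpy 2.4.6 and pandas 2.3.3, and tested on simulated peaks; figures were drawn with matplotlib 3.10.9. Body coverage leaves out the end windows. Intervals are 95% Wilson intervals, and those of a difference combine both (Newcombe). The most upstream listed start of a gene was used. Members on chromosome 18 (11) are counted and not named, and have no listed start; 1 further gene that meets the symbol rule is not reported here. Protein sequences were not used here, so zinc fingers and KRAB domains were not counted.

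Named genes are 18 members of known role and, for each mark, the 5 members with the widest peak completely lost or gained, the member with the widest peak of each list, and the cluster with most members; other clusters and genes were named after their values were seen. The members and lists were chosen with earlier results of these data known. Alternatives changed the window, the overlap, the lists (wider 50%, equal size, common limits, merging), the cluster distance and the members kept.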

Additional observations from a re-analysis of the deposited data

How the results depend on the processing

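No paired analysis was possible because replicate numbers belong to libraries, and the deposited lists are 1 per group. Of 138 alternatives chosen at the start, 114 kept the value within its interval or within 1.5 times the count. Counts of members with a gene-end peak, with H3K27ac gained (51 to 68) and with H3K4me3 lost (20 to 32) were among these under every alternative run. H3K27ac losses numbered 31 with windows of 5 kb. H3K4me3 gains numbered 7 with windows of 1 kb, 6 with 5 kb, 24 in the wider 50% of each list and 7 without peaks under 500 bp. The cause of these shifts was not tested.

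Of the 6 differences between clustered and single members chosen at the start, 3 changed sign under an alternative. The other 3 kept it: H3K27ac in control (0.65 to 8.52 points), H3K4me3 in mutant (−7.39 to −2.26) and H3K4me3 loss (3.49 to 5.31). For H3K27ac loss (−1.23 points) the value was 1.81 with windows of 5 kb, 1.41 in the wider 50%, 0.99 with lists of equal size, 0.86 with common limits (peaks less than 750 bp apart merged, under 200 bp dropped) and 2.54 without windows holding another gene end. The H3K27ac difference in mutant was −1.26 with lists of equal size. The H3K4me3 difference in control was −6.10 in the wider 50% and −3.28 with clusters by 200 kb.

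Body coverage, a sum with no error of its own, moved under each alternative but 1, the H3K4me3 share in mutant with common limits (14.1%). For H3K27ac it was 17.1% in control and 13.2% in mutant in the wider 50%, 18.1% and 15.2% with common limits, and 7.37% and 11.2% as the median body. For H3K4me3 it was 12.5% and 12.4% in the wider 50%, 14.2% in control with common limits, and 7.92% and 11.5% as the median body. Of 18 alternatives added after seeing the data, 17 stayed within the interval or 1.5 times the count; the exception was the H3K4me3 share at promoters of at most 7 CG dinucleotides, 87.5% without members with a near copy.

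Read depth and replicate lists were not analysed here, so weak peaks near a calling threshold cannot be told from absent ones.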
